A study of Mus musculus with 8 samples.

Results

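The 48 genes described here encode the proteins that copy DNA in S phase, together with the cyclin E and E2F genes that start it and a set of fork and recombination genes. They were taken from a fixed list of mouse gene symbols, and all 48 were found among the 49585 genes counted. RNA had been sequenced from 8 livers of male mice kept for 3 months, from 21 days of age, on a high-fat diet that lacks choline, which produces a fatty liver.

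Each mouse carried at least 1 unaltered Trp53 allele, which encodes the tumour suppressor p53. LPfl/+ livers (Alb-CreTG, Trp53fl/+, 2 livers) had lost the other allele in the cells where Cre acts, and LP245/+ livers (Alb-CreTG, Trp53wm-R245W/+, 3 livers) had it switched there from wild-type to the R245W missense form, the mouse counterpart of a common hotspot in liver cancer. The Cre of these mice is driven by the albumin promoter and acts in hepatocytes and cholangiocytes, so the other cells of a liver stay unaltered and their RNA is in the same library. The 3 control livers were labelled Alb-Cre0, without Cre, whereas the published methods allow controls with or without it, and the labels were followed here. By these labels replicates 1 and 2 carried the unrecombined Trp53fl/+ alleles and replicate 3 the unrecombined Trp53wm-R245W/+ alleles. If the labels hold, a control differs from either altered genotype by the presence of Cre as well as by the state of Trp53, and the effects of both cannot be told apart.

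DNA replication is prepared in G1, when the origin recognition complex with Cdc6 and Cdt1 loads the Mcm2 to Mcm7 helicase onto DNA, and begins when Cdc45 and the GINS complex turn that helicase on. Polymerase alpha and primase then lay down primers, the clamp loader RFC places the PCNA ring, and polymerases delta and epsilon copy the strands. Most of these genes are transcribed together at the G1-S border by E2F factors, which the RB family holds back until cyclin-dependent kinases release them. p53 acts on this step through Cdkn1a (p21), an inhibitor of those kinases. Most hepatocytes of an adult liver rest outside the cell cycle, so these transcripts come from few cells or at a low level from many, and in whole liver fewer such cells and less RNA per cell cannot be told apart.

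The libraries held between 26304526 and 31370714 counts, and each of the 6 hepatocyte markers had reads in every liver. Trp53 had 226, 258 and 202 normalized read counts in the controls, 127 and 178 in LPfl/+ livers and 316, 294 and 193 in LP245/+, where a normalized read count is a count divided by the size factor of its library. The LPfl/+ values lay below all control values, and gene-level counts do not show which allele an LP245/+ transcript came from. By their library numbers the samples form 2 series. One, the first, holds 2 control and all LP245/+ livers and the second holds 1 control and both LPfl/+ livers, and the first principal component of all genes, with 31.1% of the variance, separated them. No series holds both altered genotypes, so a fit of their difference that takes account of the series rests on the controls, of which the second series holds 1.

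No member passed the cutoff of the study, a change of 1 or more in either direction on the log2 scale with an adjusted p of at most 0.05, in any of 4 comparisons. Of the 48 members, 45 had enough counts to be tested with edgeR's quasi-likelihood test, with Benjamini-Hochberg adjustment over all 16496 genes tested. Between LP245/+ and control livers, 0 of 45 members passed, where 0.00606% of all genes did, and the smallest adjusted p of a member was 0.831. Between LPfl/+ and control livers the count was 0 (0% of all genes) with a smallest adjusted p of 0.697, and between LP245/+ and LPfl/+ livers it was 0 (0% of all genes) with 0.467. With both altered genotypes averaged against the controls the count was 0 (0.0121% of all genes) with 0.847. DESeq2 likewise passed 0 members in each of the 4 comparisons.

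With edgeR on all 8 livers and with its filter on low counts, the share of members at an unadjusted p below 0.05 was below that of all genes in each comparison. In LP245/+ compared with control livers 1 of 45 members met it (5.93% of all genes), in LPfl/+ compared with control 2 (6.89%), in LP245/+ compared with LPfl/+ 3 (8.51%) and in the average against control 1 (5.61%). By direction, 1 member was lower and 0 higher in the first comparison (2.38% and 3.55% of all genes), 1 and 1 in the second (2.67% and 4.22%), 2 and 1 in the third (4.44% and 4.07%) and 0 and 1 in the average (2.03% and 3.58%). DESeq2 tested all 48 members among 30240 genes, and the same threshold was used. In LP245/+ compared with control 1 member met it (2.70% of all genes), and in LPfl/+ compared with control 3 (3.13%). In LP245/+ compared with LPfl/+ 3 members met it (4.11%), and in the average 1 (2.48%). By DESeq2 the share of members was above that of all genes in LPfl/+ compared with control and in LP245/+ compared with LPfl/+. It was below that of all genes in the other comparisons. Groups without overlap were no more frequent among members in LP245/+ compared with control, with 2 lower and 1 higher (5.79% and 6.03% of all genes, 11.8% either way). In LPfl/+ compared with control 8 were lower and 6 higher (13.2% and 11.9%), in LP245/+ compared with LPfl/+ 4 and 6 (13.3% and 12.1%, 25.4% either way) and in the average 0 and 1 (2.14% and 2.36%, 4.5% either way). These comparisons share livers: the first, the second and the average use the same 3 controls.

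The fold changes were small and went both ways. The members' median log2 fold change was -0.05 in LP245/+ compared with control, -0.10 in LPfl/+ compared with control, 0.07 in LP245/+ compared with LPfl/+ and -0.10 in the average, beside medians of all genes tested between -0.00408 and 0.00387. By point estimate, 24 of 45 members were lower in LP245/+ than in control livers (49.4% of all genes), 30 in LPfl/+ than in control (50.2%), 17 in LP245/+ than in LPfl/+ (49.2%) and 28 in the average (51%). The 95% interval lay wholly inside a 2-fold change in either direction for 34, 29, 34 and 37 of the 45 members in that order. For the other members these livers leave a 2-fold difference possible.

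**Figure D1:**
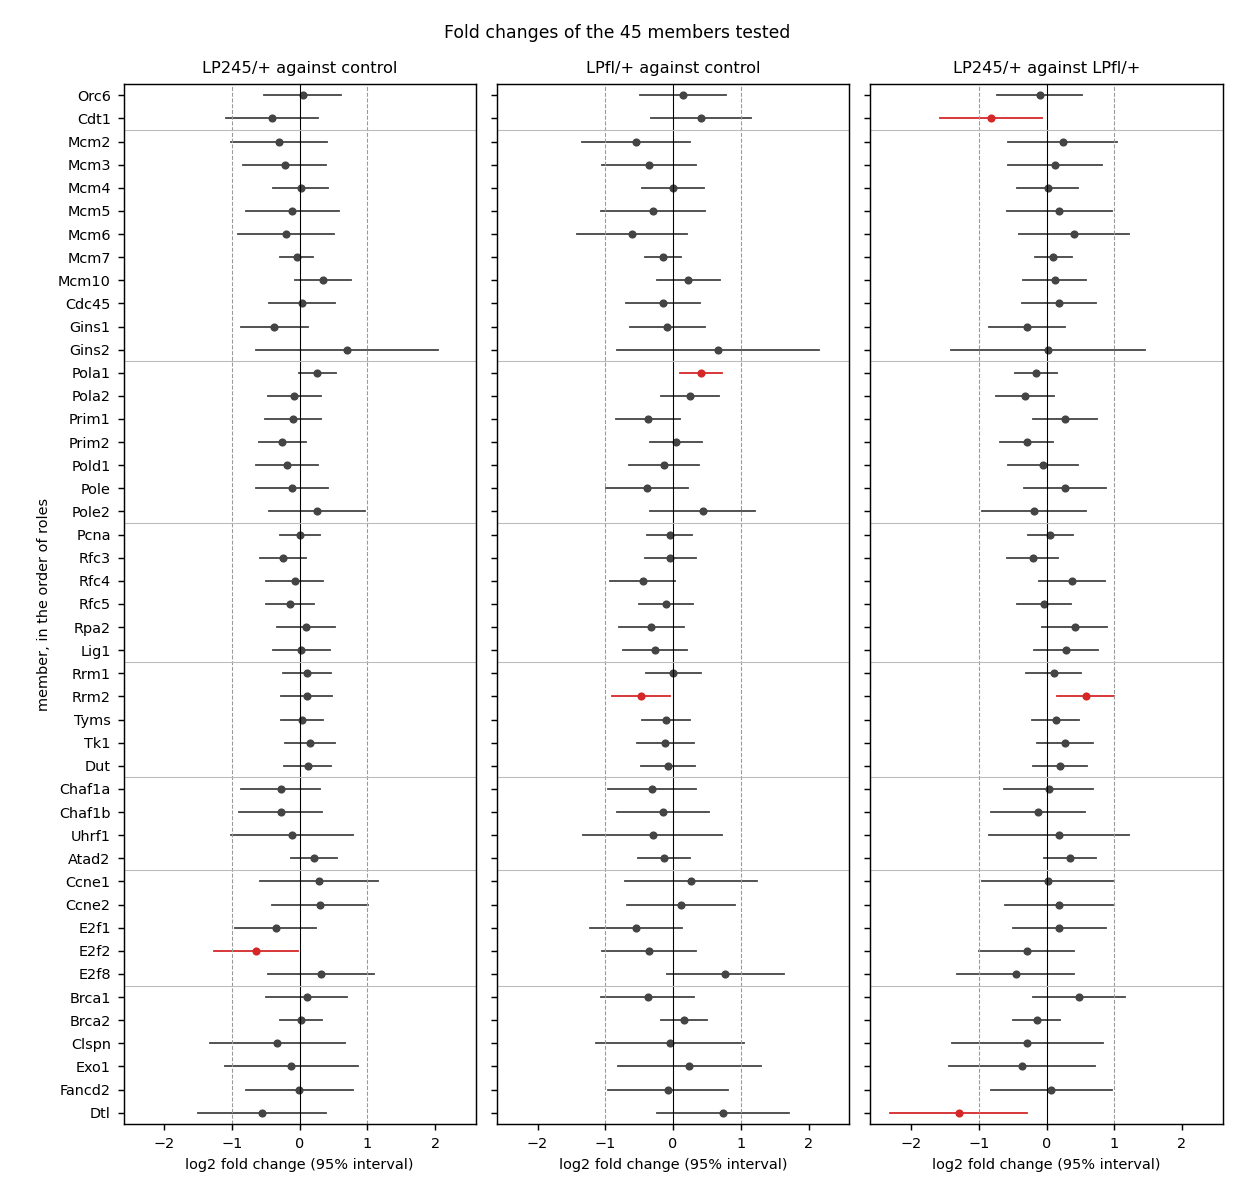
Log2 fold change (x axis, with its 95% interval) of each of the 45 members tested (y axis, ordered by role) in the 3 comparisons of pairs of genotypes. Red marks an unadjusted p below 0.05 and dashed lines a 2-fold change; 1, 2 and 3 members are red in the panels from left to right, and most intervals cross 0.

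Within the library series the direction of the LPfl/+ median turned. In the first series the members' median log2 ratio of LP245/+ to control was -0.12 with 29 of 45 lower, and in the second the median ratio of LPfl/+ to its only control was 0.08 with 18 of 45 lower. The lower LPfl/+ median therefore rests on control replicates 2 and 3, which belong to the other series.

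The members spanned a wide range of levels. Their mean normalized read count over the 8 livers had a median of 99.8, with 15 members under 50, 8 under 20 and 1, Mcm10, above 500. Per kilobase of exon, Mcm10 was highest at 267 normalized read counts, ahead of Pcna with 198 and Mcm7 with 78.0, and Exo1, a nuclease of mismatch repair and recombination, was lowest at 1.03. By role the median per kilobase was 53.0 for the clamp and strand-joining genes, 52.5 for the nucleotide genes and 48.2 for the helicase genes, against 1.62 for the fork and repair genes and 5.74 for the chromatin genes. All 48 members had reads in every liver. Origin gene Orc1, licensing gene Cdc6 and flap nuclease gene Fen1 did not pass the filter on low counts, with 2 to 11, 4 to 12 and 2 to 15 counts per liver. For Fen1, 78.8% of its exon sequence lies opposite an antisense gene, Gm10143.

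Of the licensing genes, Cdt1 and Orc6 were tested. Cdt1, which brings the helicase to the origin, had 55.1, 46.1 and 46.1 normalized read counts in control, 58.8 and 70.7 in LPfl/+ livers and 28.9, 55.6 and 25.5 in LP245/+. Both LPfl/+ values lay above all others, and in LP245/+ replicates 1 and 3 were below every control while replicate 2 was above all 3. Between LP245/+ and LPfl/+ the log2 fold change was -0.81 (95% interval -1.57 to -0.06, adjusted p = 0.547 from edgeR). Compared with control it was -0.41 in LP245/+ and 0.41 in LPfl/+, with intervals of -1.09 to 0.28 and -0.33 to 1.14. With 1 liver left out, the unadjusted p was below 0.05 in 4 of 8 fits, and it was lost without LPfl/+ replicate 1 or 2 or LP245/+ replicate 1 or 3. With the library series as a covariate the log2 fold change was -0.56, and the unadjusted p was above 0.05.

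Orc6, the smallest subunit of the origin recognition complex and the most abundant licensing gene per kilobase (43.0 normalized read counts), had 84.1, 126 and 97.9 normalized read counts in control, 117 and 109 in LPfl/+ livers and 146, 84.9 and 84.5 in LP245/+. The 3 genotypes overlapped. Its log2 fold change in LP245/+ compared with control was 0.05 (95% interval -0.52 to 0.61).

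The promoters of the members that had the smallest p-values and hold an E2F sequence are shown because E2F factors are the known activators of these genes. Each line gives 250 bases before to 50 bases after the RefSeq start in GRCm38.p6, on the strand of the gene, with capitals for every match to TTTCCCGC, TTTCGCGC, TTTGCCGC or TTTGGCGC on either strand. For Cdt1 the window was chr8:122567765-122568064 on the plus strand, for Dtl chr1:191575495-191575794 on the minus strand, for E2f2 chr4:136172024-136172323 on the plus strand and for Pola1 chrX:93632106-93632405 on the minus strand. E2f2 has 2 RefSeq promoters, and the other, chr4:136180532-136180831, held no E2F match.
Cdt1: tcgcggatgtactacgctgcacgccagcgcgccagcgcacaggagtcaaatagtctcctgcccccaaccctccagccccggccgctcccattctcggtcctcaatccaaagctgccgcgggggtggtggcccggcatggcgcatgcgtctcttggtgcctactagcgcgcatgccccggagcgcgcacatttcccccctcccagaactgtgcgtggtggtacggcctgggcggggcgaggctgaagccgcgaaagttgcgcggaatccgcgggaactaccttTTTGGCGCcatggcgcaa
Dtl: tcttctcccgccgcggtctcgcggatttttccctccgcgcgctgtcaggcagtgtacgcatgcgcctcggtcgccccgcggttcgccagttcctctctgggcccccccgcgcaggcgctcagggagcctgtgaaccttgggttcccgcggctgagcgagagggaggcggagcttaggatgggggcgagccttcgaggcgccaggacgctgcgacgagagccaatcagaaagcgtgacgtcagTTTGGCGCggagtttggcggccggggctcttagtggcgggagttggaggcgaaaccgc
E2f2: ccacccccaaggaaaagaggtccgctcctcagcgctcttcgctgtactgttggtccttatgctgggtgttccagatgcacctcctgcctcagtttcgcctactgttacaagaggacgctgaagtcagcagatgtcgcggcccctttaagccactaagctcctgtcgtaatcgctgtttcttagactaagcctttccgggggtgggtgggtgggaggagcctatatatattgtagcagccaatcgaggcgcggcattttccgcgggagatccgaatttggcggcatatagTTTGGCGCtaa
Pola1: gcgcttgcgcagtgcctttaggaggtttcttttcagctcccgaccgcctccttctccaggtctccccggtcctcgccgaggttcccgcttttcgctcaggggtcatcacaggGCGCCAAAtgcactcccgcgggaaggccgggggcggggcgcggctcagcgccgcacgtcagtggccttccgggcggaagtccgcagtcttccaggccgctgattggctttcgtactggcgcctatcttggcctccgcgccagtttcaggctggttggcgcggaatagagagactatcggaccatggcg
In Cdt1 and E2f2 the match began 32 and 39 bases after the start, in Dtl 8 bases before it, and in Pola1 138 bases before it and on the opposite strand. A match is a description of the letters and not a measured binding site.

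Mcm2, Mcm3, Mcm5 and Mcm6 encode subunits of the ring that unwinds DNA. They were high in the same control and LP245/+ livers, a pattern noticed after their values were seen. In LPfl/+ livers they were split, with Mcm2 and Mcm3 higher in replicate 1 and Mcm5 and Mcm6 in replicate 2. Mcm6 had 149.8, 335 and 256 normalized read counts in control, 149 and 174 in LPfl/+ livers and 142, 302 and 194 in LP245/+. Mcm3 had 133, 298 and 217 in control, 171 and 166 in LPfl/+ livers and 144, 232 and 175 in LP245/+. For all 4 genes control replicate 2 was the highest of the 8 livers and LP245/+ replicate 2 the highest of its genotype, and control replicate 1 and LP245/+ replicate 1 were the lowest of theirs.

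Summed over these 4 genes, the normalized read counts were 461, 986 and 727 in control, 501 and 543 in LPfl/+ livers and 444, 852 and 561 in LP245/+. The highest control was 1.96 to 2.24 times the lowest for each of the 4 genes, and the highest LP245/+ liver 1.62 to 2.28 times the lowest. Mcm4 and Mcm7, which form the same ring, spread less, with 1.55 and 1.17 times among the controls, and Mcm7 with 1.04 times among LP245/+ livers. Mcm4 was also highest in control replicate 2 (229) and lowest of the controls in replicate 1 (148). Among LP245/+ livers it was highest in replicate 2 (207) and lowest in replicate 3 (166). The within-genotype standard deviation on the log2 scale was 0.51 for Mcm6, 0.49 for Mcm2, 0.43 for Mcm3 and 0.45 for Mcm5, beside a median of 0.25 over the members and 0.09 for Mcm7. Mcm6 was at the 95.2th percentile, Mcm3 at the 92.4th, Mcm2 at the 91.1th and Mcm5 at the 87.6th among genes of like mean level.

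The genotypes overlapped for each of Mcm2, Mcm3, Mcm5 and Mcm6. In LPfl/+ compared with control their log2 fold changes ran from -0.29 (95% interval -1.07 to 0.48, Mcm5) to -0.61 (-1.41 to 0.20, Mcm6), and in LP245/+ from -0.11 (-0.79 to 0.58, Mcm5) to -0.31 (-1.01 to 0.40, Mcm2). In the second series alone the ratio of LPfl/+ to control replicate 1 was between -0.02 and 0.34 on the log2 scale, since that control was among the lowest livers for these genes. Of the members outside the 4, Gins1, a subunit of the complex that turns the helicase on, followed them most closely. The root mean square difference between its within-genotype log2 deviations and the mean of those of the 4, over the 8 livers, was 0.20. Pold1, the catalytic subunit of polymerase delta, came next with 0.21, and Mcm4 had 0.22.

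Mcm10, which joins the helicase to polymerase alpha, was the most abundant member and had another order of livers. It had 2189, 1495 and 1733 normalized read counts in control, 1841 and 2349.7 in LPfl/+ livers and 2583, 1738 and 2523 in LP245/+. Control replicate 2 and LP245/+ replicate 2, the highest livers of their genotypes for the 4 Mcm genes, were the lowest for Mcm10, while in LPfl/+ replicate 2 was the higher for both Mcm10 and the sum of the 4. In ratio, Mcm10 stood at 1.52 times the sum of the 4 in control replicate 2 and at 5.81 times in LP245/+ replicate 1. No annotated exon of another gene overlaps its exons. Its log2 fold change in LP245/+ compared with control was 0.35 (95% interval -0.07 to 0.76, adjusted p = 0.831 from edgeR), and with the library series as a covariate it was 0.51 with an unadjusted p below 0.05.

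**Figure D2:**
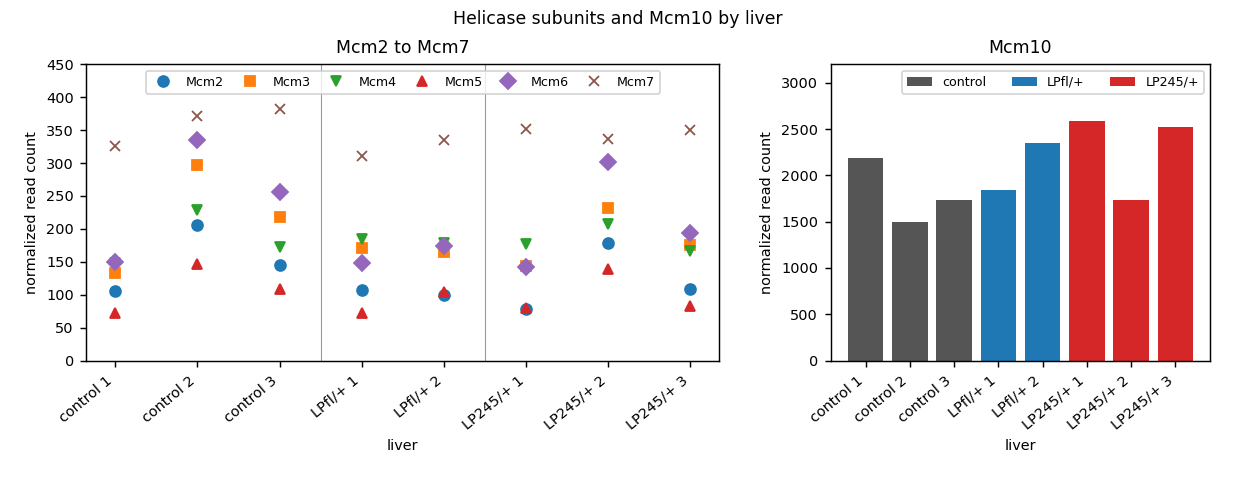
Normalized read counts (y axis, from 0) of Mcm2 to Mcm7 (left, 1 symbol per gene) and of Mcm10 (right, bars) in each of the 8 livers (x axis). Mcm2, Mcm3, Mcm5 and Mcm6 are highest in control 2 and, among LP245/+ livers, in replicate 2, where Mcm10 is lowest in its genotype.

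The promoters of Mcm3, Mcm5 and Mcm6 are shown because these genes moved together among control and among LP245/+ livers and each holds more than 1 match to the E2F letters. They were chosen after the values were seen. Mcm7 and Rfc3 also held more than 1 match, and Mcm2 held none in its window. Capitals mark the matches as above. The windows were chr1:20820263-20820562 on the minus strand for Mcm3, chr8:75109259-75109558 on the plus strand for Mcm5 and chr1:128359656-128359955 on the minus strand for Mcm6.
Mcm3: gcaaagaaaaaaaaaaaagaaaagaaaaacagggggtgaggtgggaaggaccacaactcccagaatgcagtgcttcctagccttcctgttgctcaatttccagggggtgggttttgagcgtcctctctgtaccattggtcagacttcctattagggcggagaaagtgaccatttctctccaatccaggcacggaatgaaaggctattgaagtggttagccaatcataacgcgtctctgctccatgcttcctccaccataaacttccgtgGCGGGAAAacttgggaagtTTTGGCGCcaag
Mcm5: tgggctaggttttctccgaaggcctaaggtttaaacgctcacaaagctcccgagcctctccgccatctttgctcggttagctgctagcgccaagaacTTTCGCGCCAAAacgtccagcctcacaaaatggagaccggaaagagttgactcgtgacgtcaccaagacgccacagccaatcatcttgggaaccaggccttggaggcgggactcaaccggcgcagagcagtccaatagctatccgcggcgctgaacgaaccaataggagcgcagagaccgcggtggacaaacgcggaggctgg
Mcm6: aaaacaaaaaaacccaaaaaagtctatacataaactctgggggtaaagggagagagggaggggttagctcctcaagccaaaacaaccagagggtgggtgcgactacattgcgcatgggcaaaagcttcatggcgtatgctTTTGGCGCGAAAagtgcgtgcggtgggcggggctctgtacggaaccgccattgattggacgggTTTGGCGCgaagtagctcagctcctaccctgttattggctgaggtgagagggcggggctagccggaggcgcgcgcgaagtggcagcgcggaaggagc
In Mcm5 the matches overlapped to give TTTCGCGCCAAA, beginning 153 bases before the start, and Mcm6 held the reverse complement of the same 12 letters, TTTGGCGCGAAA, 110 bases before its start. Of 32851 RefSeq promoters of this length, 4 (0.0122%) held these 12 letters on either strand, and 2 of the 4 were those of Mcm5 and Mcm6. The letters were taken from these promoters, so their presence in both was given in advance. A link between these letters and the levels of the genes was not tested.

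The remaining helicase genes were Cdc45, Gins1 and Gins2. The log2 fold change between LP245/+ and control was 0.04 for Cdc45 and -0.37 (95% interval -0.87 to 0.13) for Gins1. Gins2 had 3 to 23 counts per liver and the widest spread of the members, 0.98 on the log2 scale, and 67.3% of its exon sequence lies opposite exons of Gse1, so its value is uncertain.

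Among the 7 polymerase and primase genes, only Pola1 had an unadjusted p below 0.05 in any comparison. Pola1, the catalytic subunit of polymerase alpha, which starts every new strand, had 219, 238 and 213 normalized read counts in control, 322 and 269.6 in LPfl/+ livers and 255, 259.7 and 283 in LP245/+. All 5 livers with an altered Trp53 allele were above all 3 controls, as for 1 of 45 members and 2.36% of all genes tested. The log2 fold change was 0.41 in LPfl/+ compared with control (95% interval 0.11 to 0.72, adjusted p = 0.697 from edgeR) and 0.26 in LP245/+ (95% interval -0.01 to 0.54, adjusted p = 0.831). With both averaged it was 0.34 (95% interval 0.09 to 0.59, adjusted p = 0.847 from edgeR). Within 1 library series the log2 ratio was 0.24 for LP245/+ and 0.43 for LPfl/+. With the series as a covariate the log2 fold change was 0.44 in LPfl/+ with an unadjusted p above 0.05, and 0.34 in the average with one below it. The unadjusted p of the LPfl/+ comparison was below 0.05 in 7 of 8 fits with 1 liver left out and was lost without LPfl/+ replicate 1, and that of the average was lost without control replicate 3 or LPfl/+ replicate 1.

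The partners of Pola1 in the same complex did not share its order of livers. Pola2, its accessory subunit, had a log2 fold change of -0.08 in LP245/+ and 0.24 in LPfl/+ compared with control, and the primase subunit genes Prim1 and Prim2 had -0.10 and -0.25 in LP245/+ and -0.37 and 0.04 in LPfl/+. Pold1, the catalytic subunit of polymerase delta, had -0.19 and -0.13, and the epsilon genes Pole and Pole2 had -0.11 and 0.26 in LP245/+ and -0.39 and 0.44 in LPfl/+. None of these 6 had an unadjusted p below 0.05 in any of the 4 comparisons. For Pola2 both LPfl/+ livers (262 and 244 normalized read counts) were above every control (at most 238), while LP245/+ livers had 174, 253 and 181. Of the 7 genes of the role, 2 were lower and 3 higher in LPfl/+ than in control without overlap, beside 25.1% of all genes either way.

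The clamp and strand-joining genes had small fold changes with narrow intervals. Pcna, the sliding clamp and also a known p53 target, had 421, 483 and 535 normalized read counts in control, 518 and 406 in LPfl/+ livers and 488, 429 and 521 in LP245/+. The genotypes overlapped, and its log2 fold change was 0.01 in LP245/+ (95% interval -0.29 to 0.31) and -0.05 in LPfl/+ (95% interval -0.38 to 0.29) compared with control. All 6 genes tested in this role, which include the clamp loader genes Rfc3, Rfc4 and Rfc5, the single-strand binding gene Rpa2 and DNA ligase Lig1, had intervals inside a 2-fold change in each comparison. Rfc4, Rpa2 and Lig1 were lower in both LPfl/+ livers than in every control, with log2 fold changes of -0.45 (adjusted p = 0.744 from edgeR), -0.32 (adjusted p = 0.792) and -0.26 (adjusted p = 0.824). Without overlap between LPfl/+ and control were 8 members lower and 6 higher, 14 of 45, where 25.1% of all genes tested had none.

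The nucleotide genes supply deoxynucleotides. Rrm2, the S-phase subunit of ribonucleotide reductase, had 160.4, 125 and 172 normalized read counts in control, 105 and 113 in LPfl/+ livers and 172, 147 and 170.1 in LP245/+. Both LPfl/+ livers were below each of the other 6. The log2 fold change was -0.47 in LPfl/+ compared with control (95% interval -0.90 to -0.05, adjusted p = 0.706 from edgeR) and 0.58 in LP245/+ compared with LPfl/+ (95% interval 0.15 to 1.001, adjusted p = 0.467). In LP245/+ compared with control it was 0.10 (95% interval -0.27 to 0.48). With the series as a covariate the first 2 of these were -0.55 and 0.69, each with an unadjusted p above 0.05. The unadjusted p stayed below 0.05 in 4 of 8 fits with 1 liver left out for the first and in 7 of 8 for the second, and it was lost for both without LPfl/+ replicate 1 and for the first also without LPfl/+ replicate 2 or control replicate 1 or 3.

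Markers of red blood cells were mostly lower in the same livers, as were those of some other cell types. Of 7 erythroid markers, 6 were lower in LPfl/+ than in control livers by point estimate and 2, Hbb-bt and Hba-a1, had an unadjusted p below 0.05, with a median log2 fold change of -0.82. Their summed normalized read counts ran from 4616 to 5877 in LPfl/+, 6352 to 9242 in control and 5204 to 8106 in LP245/+ livers, and all 7 had reads in every liver. Of 5 B and plasma cell markers tested, 4 were lower in LPfl/+ than in control livers, with a median of -0.53, and 1, Cd79b, had an unadjusted p below 0.05. The summed list of 6 ran from 115 to 122 normalized read counts in LPfl/+, 135 to 173 in control and 98.01 to 238 in LP245/+ livers, with none at 0. Both neutrophil markers tested, S100a8 and S100a9, were higher without overlap, with a median of 0.75, and the summed neutrophil list ran from 78.0 to 78.8 normalized read counts in LPfl/+, 39.5 to 53.1 in control and 47.5 to 61.1 in LP245/+ livers, with Ngp, Camp, Elane and Mpo at 0 in some livers. Endothelial markers were lower in LPfl/+ than in control livers for 5 of 6 (median -0.22) and hepatocyte markers for 5 of 6 (median -0.23). Of the endothelial markers 1 was lower with an unadjusted p below 0.05, as were 2.67% of all genes. Stellate and cholangiocyte markers were lower for 4 of 6 each, macrophage markers for 4 of 8 and T and NK cell markers for 3 of 6. The part of blood cells or other cell types in the Rrm2 difference was not tested.

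The other nucleotide genes had smaller differences. Tk1, thymidine kinase, the most abundant of the role per kilobase (68.4 normalized read counts), had 352, 331 and 363 normalized read counts in control, 356 and 284 in LPfl/+ livers and 396, 293 and 468 in LP245/+. Its log2 fold change was 0.16 in LP245/+ compared with control (95% interval -0.22 to 0.53). Rrm1, the large subunit of ribonucleotide reductase, Tyms, thymidylate synthase, and Dut, which removes dUTP, had between 0.03 and 0.12 in that comparison. By point estimate all 5 nucleotide genes were higher in LP245/+ than in LPfl/+ livers.

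The chromatin genes assemble or modify the new chromatin. Atad2, a bromodomain ATPase and the most abundant of them, had 199, 265 and 202 normalized read counts in control, 181 and 222 in LPfl/+ livers and 265, 247 and 255 in LP245/+. Its LP245/+ values were all above its LPfl/+ values, with a log2 fold change of 0.34 (95% interval -0.04 to 0.72, adjusted p = 0.627 from edgeR). Chaf1a and Chaf1b, of the histone chaperone CAF-1, had -0.28 and -0.28 in LP245/+ and -0.31 and -0.15 in LPfl/+ compared with control, and Uhrf1, which keeps DNA methylation through replication, had -0.12 and -0.30. For Chaf1a, 52.5% of the exon sequence lies opposite exons of Ubxn6. All 4 chromatin genes were highest in control replicate 2.

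Of the 5 cyclin E and E2F genes, E2f2 had the smallest p in LP245/+ compared with control. E2f2, an activator of S-phase genes, had 118, 112 and 63.1 normalized read counts in control, 79.0 and 72.7 in LPfl/+ livers and 48.6, 79.8 and 57.0 in LP245/+. Control replicates 1 and 2 were above all LPfl/+ and LP245/+ livers, but control replicate 3 lay within their range. In LP245/+ compared with control its log2 fold change was -0.65 (95% interval -1.27 to -0.02, adjusted p = 0.831 from edgeR), and in LPfl/+ it was -0.36 (95% interval -1.05 to 0.33). Leaving out 1 liver gave an unadjusted p below 0.05 in 4 of 8 fits, the exceptions being control replicates 1 and 2 and LP245/+ replicates 1 and 3. With the series as a covariate the log2 fold change was -0.49 and the unadjusted p was above 0.05. E2f1, its close relative, had 62.8, 67.2 and 59.3 in control, 36.5 and 49.5 in LPfl/+ livers and 35.1, 67.7 and 43.8 in LP245/+, with log2 fold changes of -0.36 (adjusted p = 0.856 from edgeR) in LP245/+ and -0.54 (adjusted p = 0.757) in LPfl/+.

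E2f8, a repressor of the same genes that acts in polyploid hepatocytes, was the most abundant of this role and among the least steady. It had 170.0, 129.7 and 325 normalized read counts in control, 225 and 481 in LPfl/+ livers and 289, 229 and 253 in LP245/+. A single liver, LPfl/+ replicate 2, was the highest, and values within a genotype differed as much as values between them. The log2 fold change was 0.77 in LPfl/+ (95% interval -0.10 to 1.63, adjusted p = 0.752 from edgeR) and 0.31 in LP245/+ (95% interval -0.47 to 1.10) compared with control. Cyclin E genes Ccne1 and Ccne2 had 0.28 and 0.30 in LP245/+ and 0.27 and 0.12 in LPfl/+. Exons of other genes on the opposite strand overlap 11.2% of the exon sequence of E2f8 and 17.4% of that of Ccne2.

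In the fork and repair group, Dtl had the largest fold change of any member. Dtl directs a ubiquitin ligase that removes Cdt1 in S phase, and it had 17.4, 25.9 and 18.8 normalized read counts in control, 28.4 and 40.4 in LPfl/+ livers and 8.27, 23.2 and 10.2 in LP245/+. As for Cdt1, both LPfl/+ livers were above all others, LP245/+ replicates 1 and 3 were below every control and LP245/+ replicate 2 was not. Its log2 fold change between LP245/+ and LPfl/+ was -1.29 (95% interval -2.31 to -0.28, adjusted p = 0.480 from edgeR). Compared with control it was -0.56 (95% interval -1.51 to 0.39) in LP245/+ and 0.74 (95% interval -0.23 to 1.71) in LPfl/+. The counts behind these values were 8 to 40 per liver. The unadjusted p stayed below 0.05 in 5 of 8 fits with 1 liver left out and was lost without LPfl/+ replicate 2 or LP245/+ replicate 1 or 3, and with the series as a covariate the log2 fold change was -1.65 with an unadjusted p above 0.05.

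Brca2, which loads the recombinase at stalled forks and breaks, was the most abundant gene of the group. It had 292, 249.7 and 324 normalized read counts in control, 359 and 283 in LPfl/+ livers and 286, 287 and 295 in LP245/+, and the genotypes overlapped. Its log2 fold change was 0.02 in LP245/+ (95% interval -0.29 to 0.32) and 0.16 in LPfl/+ (95% interval -0.18 to 0.50) compared with control. Brca1, which works in the same repair pathway, had 0.11 and -0.38. Clspn, a checkpoint mediator, Exo1 and Fancd2, of the Fanconi pathway, had at most 17 counts in any liver, and no interval of Clspn or Exo1 for LP245/+ or LPfl/+ compared with control lay inside a 2-fold change.

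**Figure D3:**
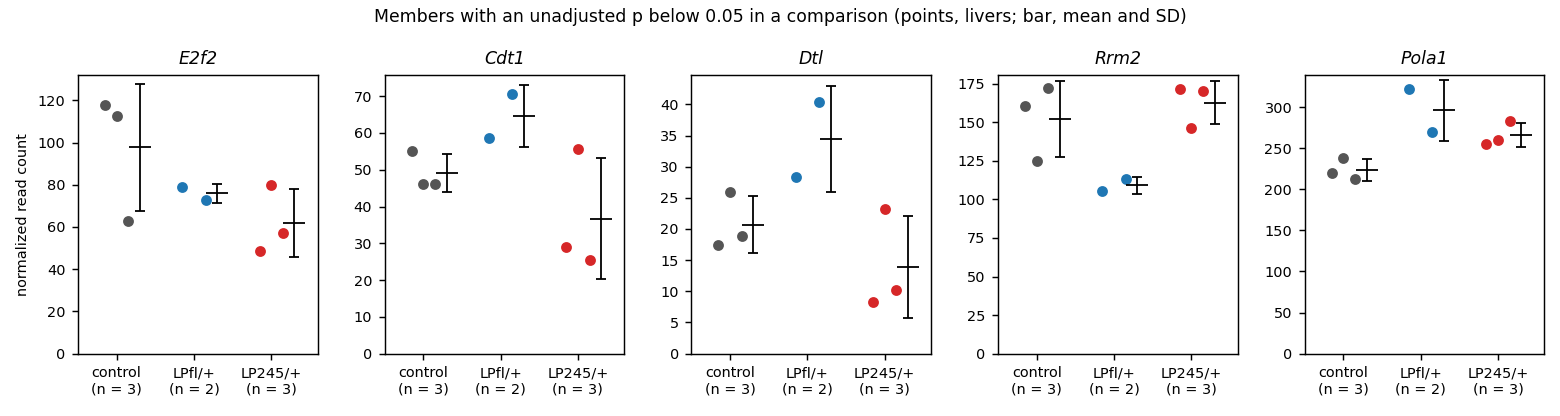
Normalized read counts (y axes, from 0) of the 5 members with an unadjusted p below 0.05 in at least 1 comparison, by genotype (x axes). Points are livers and bars the mean and SD of 3, 2 and 3 livers; for Cdt1, Dtl and E2f2 LP245/+ replicate 2 lies above the other LP245/+ livers, and for Pola1 every liver with an altered allele lies above the controls.

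By liver, more members peaked in control replicate 2 and reached their lowest value in LP245/+ replicate 1 than in any other. Of the 45 members tested, 14 (31.1%) were highest in control replicate 2, where 11.98% of all genes tested were highest, and 13 (28.9%) were lowest in LP245/+ replicate 1, where 14.1% of all genes were. Relative to each member's own mean over the 8 livers on the log2 scale, the median member was at 0.21 in control replicate 2, at 0.12 in LP245/+ replicate 2 and at -0.15 in LP245/+ replicate 1, with the other 5 livers between -0.10 and 0.09. The 3 genotypes overlapped in this median. Members of 1 pathway are not independent of each other, and no test was made over them.

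**Figure D4:**
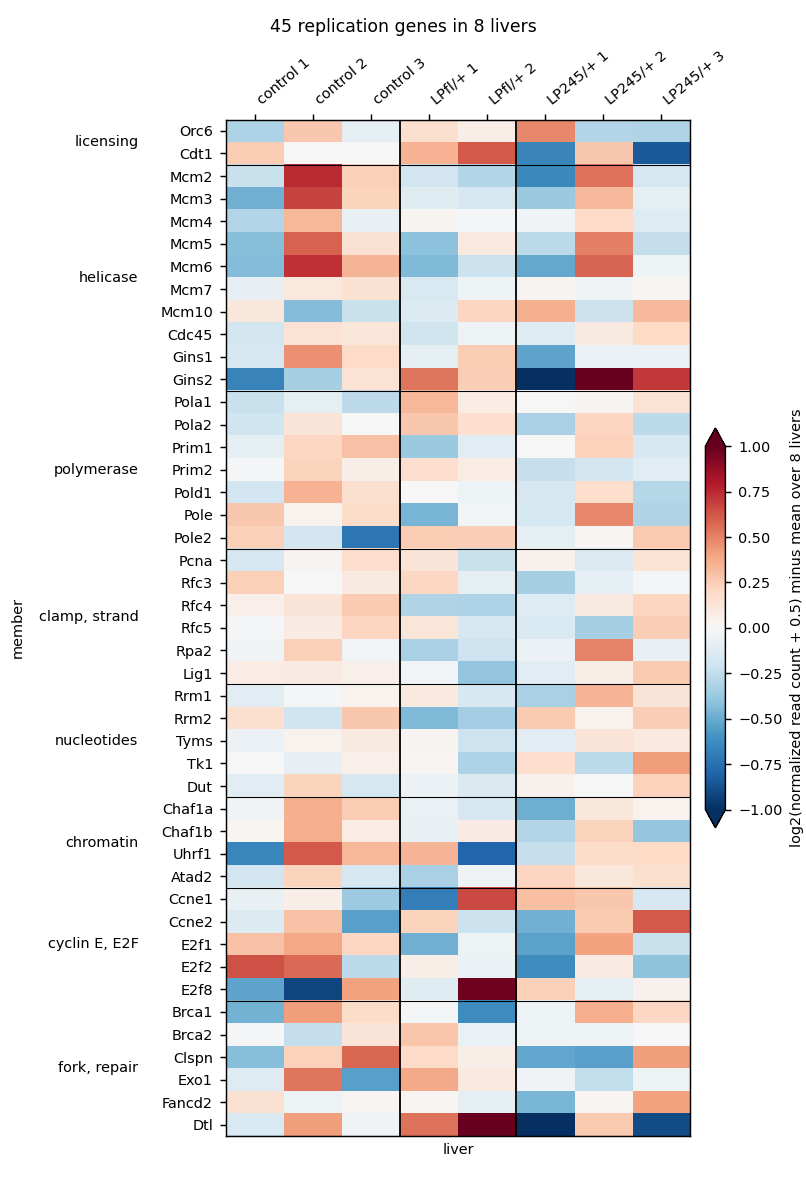
Level of the 45 members tested (y axis, by role) in the 8 livers (x axis), as log2 of the normalized read count plus 0.5 minus the member's mean over the livers; colours beyond -1 and 1 are not distinguished. Red cells gather in control 2 and LP245/+ 2 for the helicase genes, while no column of a genotype is evenly red or blue.

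E2F letters were more frequent in the promoters of the members than in all promoters. Of the 48 members, 39 had a RefSeq promoter, and 17 of these held the E2F letters. Counted by promoter, 37.8% of 45 member promoters held them against 2.26% of all 32851, 18.9% of the 53 promoters of other replication genes and 3.70% of the 27 promoters of G2-M genes. The letters TTTGAA or TTCGAA, known as the CHR of G2-M genes, were in 15.6% of member promoters, 19.2% of all and 74.1% of G2-M promoters, and CCAAT was in 57.8%, 37.4% and 77.8%. By role, 3 of 4 licensing members, 4 of 7 helicase members, 3 of 5 polymerase members and 0 of 5 nucleotide members with a promoter held the E2F letters. Member promoters were 59.7% G and C against 53.8% for all promoters, and the shares were not corrected for this.

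**Figure D5:**
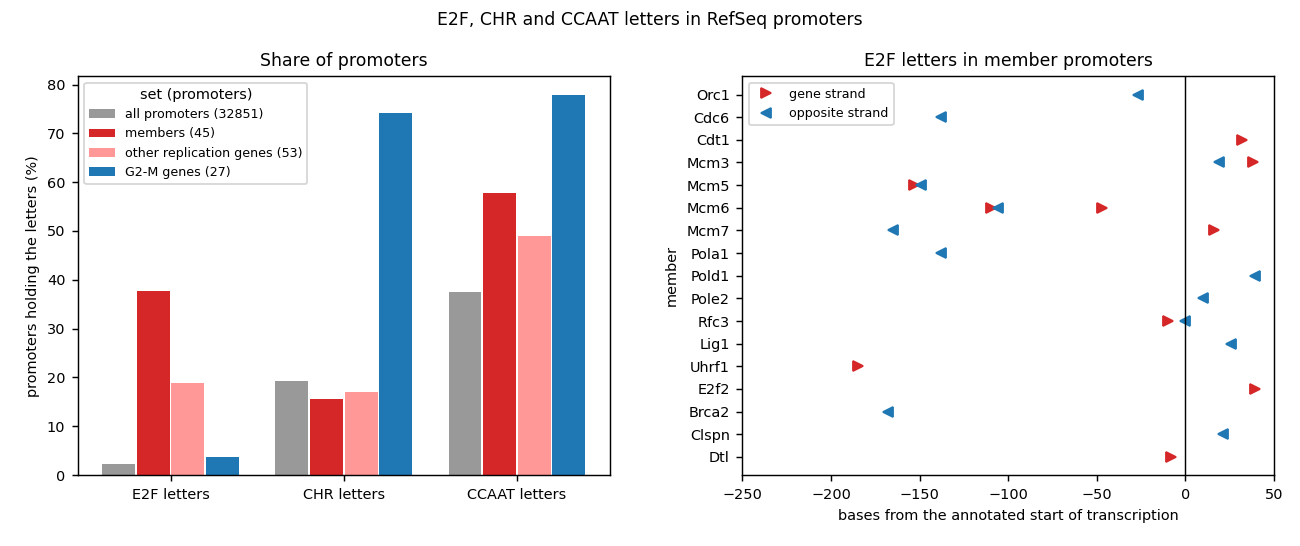
Left, share of RefSeq promoters (y axis, %) that hold E2F, CHR or CCAAT letters, for all promoters, members, other replication genes and G2-M genes; the members stand at 37.8% for E2F against 2.26% of all promoters. Right, first base of each E2F match relative to the start (x axis, bases) in 17 members (y axis), with arrows for the strand.

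Fold changes were then set out by the presence of the E2F letters. The 15 of them that were tested had a median of -0.19 on the log2 scale in LP245/+ compared with control, with 11 lower, and the 21 tested members with a promoter but without the letters had 0.04, with 8 lower. In LPfl/+ compared with control the medians were -0.13 and -0.12, and in LP245/+ compared with LPfl/+ -0.15 and 0.13. These are descriptions of the same livers, with no test.

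The wider replication machinery also had medians near 0. Of 54 other replication genes, 49 were tested, with medians of -0.00210 and -0.03 in LP245/+ and LPfl/+ compared with control, and 2 and 3 of them had an unadjusted p below 0.05, or 4.08% and 6.12%, beside 5.93% and 6.89% of all genes. Orc4, another subunit of the origin recognition complex, had the smallest of these p-values. It had 572, 553 and 463 normalized read counts in control, 705 and 770.4 in LPfl/+ livers and 614, 658 and 781 in LP245/+, so that all 5 altered livers were above the controls, and its log2 fold change was 0.38 in LP245/+ (adjusted p = 0.795 from edgeR) and 0.49 in LPfl/+ (adjusted p = 0.697).

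G2-M genes, which act in the following phases, were mostly lower by point estimate. Of 29 G2-M genes tested, 26 were lower by point estimate in LP245/+ and 26 in LPfl/+ than in control livers, with medians of -0.26 and -0.44, where 49.4% and 50.2% of all genes were lower. An unadjusted p below 0.05 was found for 3 and 4 of them, all lower, where 2.38% and 2.67% of all genes were lower with such a p. The erythroid markers had medians of -0.11 in LP245/+ and -0.82 in LPfl/+ and the B and plasma cell markers 0.05 and -0.53, and their part in the G2-M values was not tested. Mki67, the proliferation antigen Ki67, had 229.9, 268 and 261 normalized read counts in control, 139 and 165 in LPfl/+ livers and 172, 182 and 185 in LP245/+, and its log2 fold change was -0.48 (adjusted p = 0.795 from edgeR) and -0.73 (adjusted p = 0.697). Top2a, which untangles chromosomes and is also made from S phase on, had -0.19 and -0.08. No G2-M gene passed the cutoff, and the difference between these and the replication genes was not tested.

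Upstream of the members, Cdkn1a did pass. It had 188, 138 and 184 normalized read counts in control, 74.98 and 99.97 in LPfl/+ livers and 14.5, 25.3 and 27.5 in LP245/+, with no overlap between genotypes, and its log2 fold change was -2.91 in LP245/+ (adjusted p = 0.0155 from edgeR) and -0.95 in LPfl/+ (adjusted p = 0.697). The LP245/+ call was lost in 3 of 15 alternative fits, among them those without control replicate 3 (adjusted p = 0.103 from edgeR) or LP245/+ replicate 2 (adjusted p = 0.203), while the log2 fold change stayed between -3.09 and -2.68. In the average the log2 fold change was -1.93 (adjusted p = 0.0472 from edgeR), and the call was lost in 9 of 14. Of the other RB and E2F control genes, Ccnd2, a D-type cyclin that drives release of E2F, had 0.15 and -0.60 compared with control, and 0.75 between LP245/+ and LPfl/+ (adjusted p = 0.394 from edgeR). Tfdp2, a binding partner of E2F factors, had -0.11, 0.34 and -0.46 (adjusted p = 0.398 from edgeR) in the same order of comparisons. Of 25 genes of this list tested, Cdkn1a was the only one past the cutoff in any of the 4 comparisons.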

How the data were processed

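The authors sequenced ribosomal-depleted RNA of 8 livers (TruSeq Stranded Total RNA) and aligned it with STAR to GRCm38, and the deposited values are raw read counts per gene from each library; the STAR version, the annotation release and the strand setting are not given in the sources used here. The 48 members and the other lists were chosen with earlier results of these data known. Genotypes came from the labels. Identifiers were matched to GENCODE M21 without version for 49326 of 49585 genes.

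Counts were tested with edgeR 4.0.16 in R 4.3.3 (TMM, filterByExpr, quasi-likelihood F test, 3 genotype means over 8 livers), adjusted by the Benjamini-Hochberg method over 16496 genes. Standard errors came from the information matrix of the fit, and intervals are 95%. Counts were divided by DESeq2 1.42.0 size factors to give normalized read counts, and levels per kilobase use the union of exons. The fit was also run on simulated counts that had a single spread for all genes and no difference between series, unlike these livers. That run did not cover the standard errors behind the intervals. Values per liver are given for members with an unadjusted p below 0.05 in any comparison and for the most abundant of each role; other members named with such values were chosen after their values were seen. Alternatives were DESeq2, its size factors, 2 other filters on low counts, only the groups compared, the replicate block, the series as a covariate and each liver left out. The labels do not say how replicates were drawn, so p-values measure the spread between these livers. Promoter sequences were RefSeq's (GRCm38.p6).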

Additional observations from a re-analysis of the deposited data

How the results depend on the processing

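No member passed the cutoff under any alternative run. Each of the 7 log2 fold changes of members with an unadjusted p below 0.05 kept its direction. They were picked by that p and refitted on the same livers, so the kept direction is no separate evidence. The counts moved with the settings. In LP245/+ compared with control, genes past the cutoff numbered 1, with DESeq2 10, without a filter 20, with the replicate block 0 and with the series covariate 3; members higher at an unadjusted p below 0.05 numbered 0, without a filter 1 and with the series 1, and members lower numbered 1 and with only the groups compared 0. In LPfl/+ compared with control, genes past the cutoff numbered 0, with DESeq2 9, without a filter 14 and with the series 3; members higher numbered 1, with DESeq2 2, without a filter 2, with the block 2 and with the series 0; members lower numbered 1, without a filter 2 and 0 with only the groups compared, the block or the series; the median of -0.10 was 0.0850 with the series. In LP245/+ compared with LPfl/+, genes past the cutoff numbered 0, with DESeq2 56, without a filter 122, with only the groups compared 51 and with the series 10; members lower numbered 2, with the block 1 and with the series 0; members higher numbered 1, with the block 2 and with the series 0; the median of 0.07 was -0.19 with the series. In the average, genes past the cutoff numbered 2, with DESeq2 4, without a filter 7, and 0 with a mean count of at least 10 or the block; members lower numbered 0 and without a filter, with the block or with the series 1; members higher numbered 1 and without a filter 2. The cause of these moves was not tested.

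With each liver left out in turn, in the order of the comparisons above, genes past the cutoff ranged from 0 to 5, 0 to 59, 0 to 47 and 0 to 16, members lower from 0 to 5, 0 to 2, 0 to 3 and 0 to 3, members higher from 0 to 1, 1 to 2, 0 to 2 and 1 to 2, and medians from -0.11 to 0.01, -0.15 to -0.05, -0.0546 to 0.20 and -0.12 to -0.03. Over the fits with at least 2 livers per genotype, the share of all genes at an unadjusted p below 0.05 also differed. In the same order it ranged from 3.87% to 7.76%, 4.30% to 11.7%, 6.45% to 10.8% and 3.86% to 8.99%. Without control replicate 1 the counts past the cutoff were 59, 47 and 16 in the last 3. In that fit 3 of 45 members, Mcm3, Mcm6 and Pola1, met the unadjusted threshold in LPfl/+ compared with control, where 11.7% of all genes did. Without LP245/+ replicate 2, 6 of 45 members met it in LP245/+ compared with control, where 6.90% of all genes did. Dtl, E2f1, E2f2, Mcm2 and Cdt1 were lower and Mcm10 higher. Without the same liver, 5 of 45 met it in LP245/+ compared with LPfl/+ (7.37% of all genes) and 5 in the average (6.29%). Without control replicate 1, 5 of 45 met it in the average (8.99%). The Cdkn1a call was lost with the replicate block in LP245/+ compared with control (adjusted p = 0.0596 from edgeR) and in the average (adjusted p = 0.324). Same-numbered livers did not deviate together (correlations of -0.08 to 0.03). The deviations are from means of only 2 or 3 livers, so they cannot show whether the numbers pair the livers. With the replicate block the log2 fold changes compared with control were -0.62 for E2f2 in LP245/+, and 0.42 for Pola1 and -0.40 for Rrm2 in LPfl/+. In LP245/+ compared with LPfl/+ they were -0.72 for Cdt1 and -1.25 for Dtl.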
